A study of Mus musculus with 9 samples.

Results

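Ribosomal protein genes encode the protein part of the cytosolic ribosome, and their processed retrocopies are intronless copies of their mRNAs that were inserted elsewhere in the genome. The genes described here are those whose symbol follows the ribosomal protein naming pattern (Rpl or Rps with a number, with or without a letter, or Rpsa, Rplp0, Rplp1 and Rplp2), including copies named -ps and paralogs named with a final l, and whose expected counts summed to at least 90 over 9 mice. Of 55291 genes in the table, 395 symbols fit the pattern or those names and 152 passed this minimum. They comprised 77 parent genes, 67 -ps copies and 8 other paralogs. The members were thus chosen by their symbol and by their measured total, so their level is a description. The copies just inside it were Rpl18-ps2 with a total of 91.3 counts, Rpl19-ps7 with 92.1 and Rpl21-ps8 with 95.1, and those just outside it were Rps13-ps4 with 87.9 and Rpl36a-ps1 with 87.1.

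The small ribosomal subunit, built from Rps proteins, reads the mRNA, and the large subunit, built from Rpl proteins, joins the amino acids. Parent genes are transcribed in all cells at high levels, and many of their mRNAs start with a run of pyrimidines through which mTOR signalling controls their translation. Phosphorylation of RPS6, one of these proteins, is widely used as a marker of active olfactory sensory neurons, but it is a change of the protein that RNA levels do not record. Retrocopies differ from the parent mRNA at few bases, so a short read from one can often be placed on either.

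RNA was measured in the main olfactory epithelium (MOE) of C57BL/6 mice aged 8 to 12 weeks. The study compared 3 wild-type littermate controls, 3 Ms4a6c-/- mice (Ms4a6c knockout) and 3 Ms4a cluster-/- mice (Ms4a cluster knockout), in which a single member or the whole family of Ms4a genes, studied as olfactory receptors, was deleted. The cluster knockout line was made with CRISPR/Cas9 and the Ms4a6c knockout line by homologous recombination in a knockout mouse programme, so line and genotype cannot be told apart. Each sample was 1 mouse, so the p-values measure the spread between mice.

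The libraries held between 13954591 and 21987174 expected counts. The deleted gene was checked first: Ms4a6c counts ranged from 54.0 to 90.3 in the wild type and from 0 to 2.35 in the Ms4a6c knockout, and were 0 in each cluster knockout mouse. All 7 markers of mature olfactory sensory neurons were detected, and their summed level lay between 10341 and 13112 CPM (counts scaled to a common library size, with the TMM correction for differences in library composition). Wild-type mouse 1 and cluster knockout mouse 2 stood apart. The nasal gland transcript Bpifb9b held 10.4% and 10.2% of their counts, and 8 nasal gland markers summed to 263410 and 264371 CPM there, against 5684 to 39144 CPM in the other 7 mice. Bpifb9a, Bpifb9b, Obp1a and Obp2a carried these sums, while Bpifb3 did not stand apart there and Bpifb4 and Muc5b were lowest of all mice in cluster knockout mouse 2. Of 6 leukocyte markers, Lyz2 stood at 335 and 292 CPM in these libraries and at 156 to 207 CPM elsewhere, and the other markers did not share this, with Cd68 lowest of all mice in wild-type mouse 1. All 77 parent genes were highest within their genotype in those mice, against 36.4% and 36.0% of all genes. Their median log2 ratio to the other mice of the genotype was 0.21 in the wild type and 0.37 in the cluster knockout. Over all genes it was -0.02 in both. These levels depend on the TMM correction, whose factor was 0.702 and 0.704 there and 1.07 to 1.13 in the other 7 mice. A lower factor gives a higher level for the same counts. The part that tissue makeup plays in these parent levels was not tested, and in bulk tissue fewer cells of a type and less RNA per cell cannot be told apart.

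The copies that carry the results differ from their parents at very few bases. Rps7-ps3, a transcribed processed pseudogene at chrX:152909505-152910155 on the minus strand of GRCm38, differed from the Rps7 transcript at 4 of 651 aligned bases, of which 3 lay in the coding sequence (T26G, G48A and G123T, with the parent's base first and positions counted from 1 at its start codon). Here and for the pairs that follow, sequence was read from GENCODE M21 transcripts. The first 75 coding bases are given because they hold the first pair of these differences, in capitals, and the copy's stretch lies at chrX:152910046-152910120.
Rps7: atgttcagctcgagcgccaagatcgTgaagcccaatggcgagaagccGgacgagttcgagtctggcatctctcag
Rps7-ps3: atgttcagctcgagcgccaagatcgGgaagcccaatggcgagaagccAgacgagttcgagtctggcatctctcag

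Rps2-ps6 differed from Rps2 at 7 of 855 aligned bases, with 24 gap bases in the alignment besides. Rps2-ps13 differed at 7 of 882, while Rps2-ps10 differed at 5 of 926. The stretch of Rps2 from coding base 255 to 329 is shown with that of Rps2-ps6, at chr14:76237241-76237315 on the minus strand, because it holds T285C and G300A.
Rps2: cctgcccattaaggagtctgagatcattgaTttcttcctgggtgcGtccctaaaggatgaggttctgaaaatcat
Rps2-ps6: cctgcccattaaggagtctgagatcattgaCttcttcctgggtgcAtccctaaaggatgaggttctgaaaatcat

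Outside the naming pattern, Gm8210 and Gm13841 were identical to each other over 483 bases and differed from Rpl29 at 3 of them. The stretch around C72A is shown for Gm8210, at chr1:43189189-43189263 on the plus strand.
Rpl29: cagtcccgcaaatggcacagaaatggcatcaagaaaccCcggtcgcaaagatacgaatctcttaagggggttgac
Gm8210: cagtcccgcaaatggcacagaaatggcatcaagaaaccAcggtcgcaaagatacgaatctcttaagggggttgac

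Rpl34-ps1 differed from Rpl34 at 2 of 354 bases, and the stretch around T132C is shown, at chr6:71124703-71124777 on the plus strand for the copy.
Rpl34: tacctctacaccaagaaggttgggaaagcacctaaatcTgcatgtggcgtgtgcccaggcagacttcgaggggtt
Rpl34-ps1: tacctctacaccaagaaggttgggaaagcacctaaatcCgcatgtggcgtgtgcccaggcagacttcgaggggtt

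These distances were typical of the class. A search of annotated transcripts with the parent mRNAs placed 65 of the 67 -ps members on a ribosomal protein gene at between 95.4% and 100% identity, with a median of 99.4%, and 12 of them at 100%. The same search found 288 copies under other names, with a median identity of 98.2%. Of the 67 -ps members, 65 had a single exon, 57 were annotated as processed pseudogenes, 5 as transcribed processed pseudogenes and 5 as protein coding, while the parents had between 3 and 10 exons in their reference transcript. The -ps members belonged to 39 parents, with at most 4 each, and 2 of them lay on the chromosome of their parent.

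A pyrimidine run at the start of transcription was looked for in RefSeq promoters of GRCm38.p6, as at least 7 consecutive C or T bases on the transcribed strand that reached within 10 bases of the annotated start. It was found in 31 of 57 parent genes with a promoter entry, or 54.4%, against 23.1% of all 27025 promoters. The gene of the phosphorylated protein, Rps6, had a run of 10, which is shown in capitals in the 25 bases at chr4:86857353-86857377 on the minus strand. The entries of Rps2 and Rps7 held no such run.
Rps6: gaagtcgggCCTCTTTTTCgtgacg

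In wild-type MOE, levels of the parent genes per kilobase of the reference transcript of a gene, its longest principal coding transcript (for pseudogenes, its longest transcript), ranged from 30.9 CPM per kb for Rps15a to 948 CPM per kb for Rplp1, with a median of 321. Rplp1, which with Rplp0 and Rplp2 forms the stalk that recruits elongation factors, stood at 948 ± 199 CPM per kb (SD, n = 3). Rpl41, which encodes the smallest ribosomal protein, followed with 855 ± 73.3, and Rps27 with 844 ± 75.4. These differed by less than their spread. Rpl23a with 660 ± 54.8 and Rps15 with 659 ± 46.2 completed the 5 highest. The 5 lowest were Rps15a with 30.9 ± 1.49, Rps20 with 45.7 ± 4.50, Rpl22 with 75.8 ± 4.98, Rpl18 with 77.6 ± 6.91 and Rplp2 with 103 ± 6.63 CPM per kb. The reference transcript was 5179 bases long for Rps15a and 3706 for Rps20 against 499 for Rplp1, and a longer reference transcript gives a lower level per kb for the same counts.

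**Figure D1:**
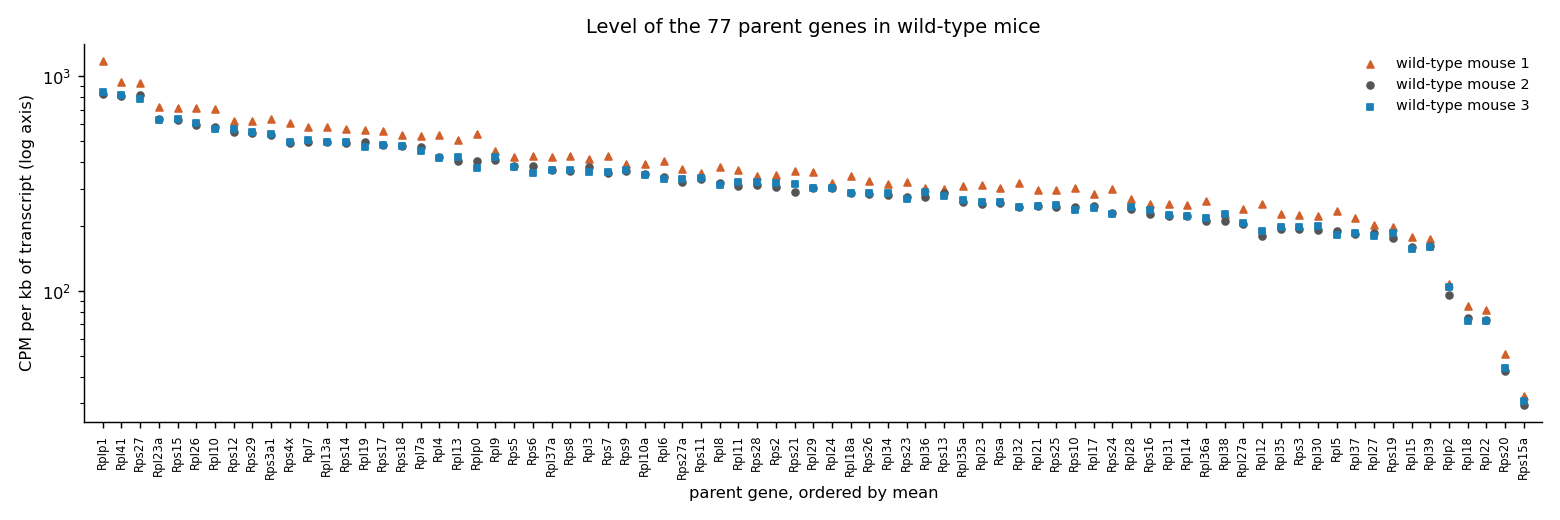
Level of each parent gene in the 3 wild-type mice, in CPM per kb of reference transcript on a log axis, with genes ordered by their mean. With the TMM correction, wild-type mouse 1, one of the gland-rich libraries, lies above the other 2 mice for all 77 genes. At the low end 5 genes from Rplp2 to Rps15a lie apart.

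The -ps copies were far lower, with a median of 2.52 CPM per kb. The highest were Rps6-ps4 at 50.7 ± 7.27 CPM per kb, Rpl31-ps8 at 29.3 ± 2.07, Rps23-ps1 at 22.7 ± 2.04, Rpl19-ps11 at 14.9 ± 1.20 and Rpl9-ps6 at 12.7 ± 1.36 (SD, n = 3 each). Among the other paralogs, the protein-coding Rps27l stood at 105 ± 27.2, Rpl36al at 70.9 ± 19.1, Rpl22l1 at 63.7 ± 7.32 and Rpl7l1 at 21.1 ± 0.659 CPM per kb. The retrocopy Rps4l stood at 15.4 ± 2.33, Rps3a2 at 5.91 ± 1.20, Rpl6l at 3.25 ± 0.179 and Rps3a3 at 2.05 ± 0.115.

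In the Ms4a6c knockout, the parent genes as a class lay slightly below wild type while a few retrocopies rose by more than 10-fold. The 77 parent genes summed to 26313, 22356 and 22393 CPM in the wild-type mice, to 23014, 29102 and 21386 CPM in the cluster knockout mice and to 21207, 21107 and 20427 CPM in the Ms4a6c knockout mice. All 3 Ms4a6c knockout mice were below all 3 wild-type mice. This direction depended on scaling: the means differed by -2774 CPM, by -1529 CPM without wild-type mouse 1, and by 376 CPM with library sizes not corrected for composition. The 67 -ps copies summed to 228, 187 and 198 CPM in wild type, 201, 238 and 214 CPM in the cluster knockout and 372, 356 and 356 CPM in the Ms4a6c knockout, where no value overlapped the other genotypes. Without Rps7-ps3 and the 3 Rps2 copies, the other 63 copies summed to 190 ± 21.1 CPM in wild type and 169 ± 4.73 CPM in the Ms4a6c knockout (SD, n = 3 each).

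**Figure D2:**
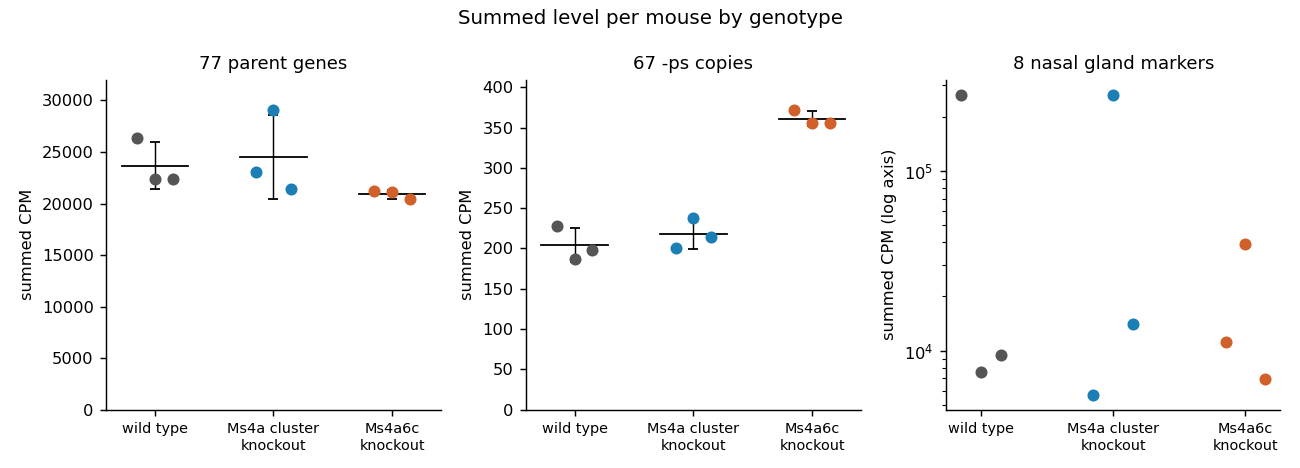
Summed CPM of the parent genes, of the -ps copies and of 8 nasal gland markers (log axis) in each mouse, by genotype. Points are mice, horizontal lines are means and bars are SD (n = 3, left and middle panels). The -ps copies reach 356 to 372 CPM in the Ms4a6c knockout only, through the 4 copies of Rps2 and Rps7. The other 63 copies have a mean sum of 190 CPM in wild type and 169 CPM in the Ms4a6c knockout. With the TMM correction, the 2 mice with the highest gland marker sums also have the highest parent sums.

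By edgeR's quasi-likelihood test over 23225 genes, 3 of 152 members passed an adjusted p of 0.05 between Ms4a6c knockout and wild-type mice, against 0.435% of all genes tested. All 3 were -ps copies, and all rose. DESeq2 called 7 members, the 4 copies of Rps7 and Rps2 and the parents Rps2, Rps7 and Rpl21, against 1.84% of genes. At an unadjusted p under 0.05, edgeR had 21 members, against 10.5% of genes. This count was 12 without wild-type mouse 1 and 44 without cluster knockout mouse 2. The 21 include Rpl35a-ps2, -ps3, -ps4 and -ps6, which have the same sequence and were high in Ms4a6c knockout mouse 1 only. They also include Rps2-ps6, which passed in edgeR, and Rps2-ps13. All of these copies reached the minimum count for members only through the Ms4a6c knockout mice. The counts of members here therefore depend in part on how members were chosen.

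Rps2-ps10 had 5.61, 5.27 and 4.95 CPM in wild-type mice, 6.41, 5.18 and 4.61 CPM in cluster knockout mice and 96.1, 90.9 and 95.5 CPM in Ms4a6c knockout mice. The Ms4a6c knockout values were all far above the others. The log2 fold change against wild type was 4.16 ± 0.11 (SE), with an edgeR adjusted p of 5.16e-08. Rps7-ps3 had 7.39, 7.82 and 7.85 CPM in wild type, 8.92, 11.2 and 6.97 CPM in the cluster knockout and 90.3, 81.2 and 80.1 CPM in the Ms4a6c knockout. It rose in the Ms4a6c knockout by a log2 fold change of 3.45 ± 0.14 (edgeR adjusted p = 1.19e-06), again with no overlap.

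Rps2-ps6 had 0.498, 0.333 and 0.853 CPM in wild type, 0.301, 0.897 and 0.251 CPM in the cluster knockout and 9.92, 10.4 and 9.05 CPM in the Ms4a6c knockout. It rose by 4.10 ± 0.39 on the log2 scale (edgeR adjusted p = 0.000662). Rps2-ps13 had at most 0.569 CPM in 6 mice of the other genotypes and 2.99, 2.73 and 7.33 CPM in the Ms4a6c knockout, with a log2 fold change of 4.01 ± 0.77 that did not pass (edgeR adjusted p = 0.0694). Both reached the minimum of 90 counts only through the Ms4a6c knockout: the other 6 mice held 47.8 of the 599.8 counts of Rps2-ps6 and 20.7 of the 253 counts of Rps2-ps13, so their membership was fixed by the genotype in which they were high.

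The parents of these copies had lower values in the same mice. Rps7, a small subunit protein, had 407, 338 and 342 CPM in wild type, 347, 475 and 332 CPM in the cluster knockout and 261, 245 and 234 CPM in the Ms4a6c knockout. The Ms4a6c knockout values were below all others, but the log2 fold change against wild type of -0.55 ± 0.13 did not pass (edgeR adjusted p = 0.152, and DESeq2 adjusted p = 0.00326). Rps2, which lines the mRNA entry side of the small subunit, had 379, 336 and 349 CPM in wild type, 356, 416 and 323 CPM in the cluster knockout and 272, 249 and 244 CPM in the Ms4a6c knockout. Its log2 fold change was -0.48 ± 0.10 (edgeR adjusted p = 0.0847, and DESeq2 adjusted p = 0.000255). In edgeR each parent passed in only 1 of 9 fits that left out 1 mouse. That was the fit without cluster knockout mouse 2, which is in neither compared group (adjusted p = 0.0192 for Rps7 and 0.0215 for Rps2). In the other fits the adjusted p reached 0.472 for Rps7 and 0.351 for Rps2.

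When parent and -ps copies were summed, no difference was detected in edgeR. Rps2 with its -ps copies had 385, 341 and 355 CPM in wild type and 381, 353 and 356 CPM in the Ms4a6c knockout, with a log2 fold change of 0.01 ± 0.09 (edgeR adjusted p = 0.984). Rps7 with Rps7-ps3 had 415, 346 and 349 CPM in wild type and 352, 326 and 314 CPM in the Ms4a6c knockout, with a log2 fold change of -0.16 ± 0.13 (edgeR adjusted p = 0.716). The mean of Rps2 was 99.9 CPM lower in the Ms4a6c knockout and that of its 3 copies 102 CPM higher. For Rps7 the parent was 116 CPM lower and the copy 76.2 CPM higher. Rps7-ps3 held between 1.79% and 2.51% of the counts of the pair in the 6 mice of the other genotypes and between 24.9% and 25.7% in the Ms4a6c knockout. For Rps2 and Rps2-ps10 the copy's share was 1.23% to 1.77% and 26.1% to 28.1%.

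**Figure D3:**
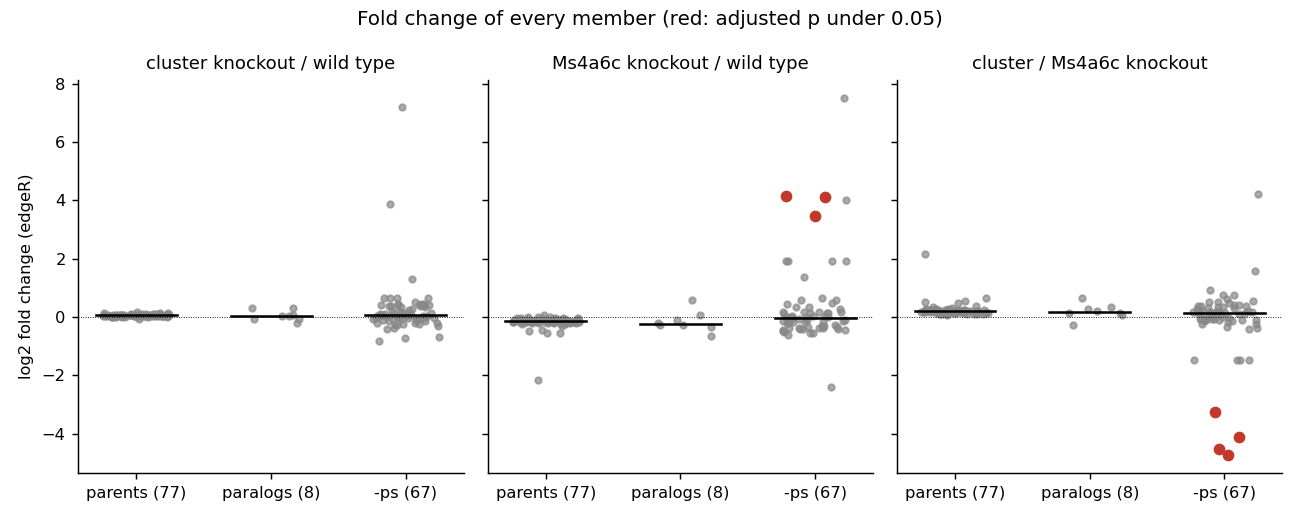
Log2 fold change of each member in each of the 3 comparisons by class, with medians as lines and members that passed an adjusted p of 0.05 in red. The medians of the parents are 0.05, -0.15 and 0.20 from left to right. The parents range from -0.08 to 0.17, from -2.17 to 0.06 and from 0.06 to 2.17. The members that passed are copies of Rps2 and Rps7.

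Lower parents beside higher copies were also seen where the copies carry other names. These copies were chosen after their values were seen. Rpl29, a large subunit protein, had 264, 221 and 221 CPM in wild type, 229, 268 and 211 CPM in the cluster knockout and 114, 23.4 and 17.6 CPM in the Ms4a6c knockout, a log2 fold change of -2.17 ± 0.56 (edgeR adjusted p = 0.184). Without Ms4a6c knockout mouse 1 it was -3.52 (edgeR adjusted p = 2.02e-05), the only 1 of 9 such fits in which Rpl29 passed. The adjusted p reached 0.442 in the others. Its copy Gm8210 had at most 0.555 CPM in the other 6 mice and 33.4, 89.7 and 71.5 CPM in the Ms4a6c knockout (log2 fold change 7.38 ± 0.48, edgeR adjusted p = 4.7e-05). Gm13841, identical in sequence to Gm8210, had 16.8, 22.1 and 33.1 CPM there against at most 1.42 CPM. Of the Ms4a6c knockout mice, mouse 1 had the most Rpl29 and the least of both copies.

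Rpl29 with all its near-identical copies summed to 268, 226 and 226 CPM in wild type and 167, 138 and 125 CPM in the Ms4a6c knockout, a fall of 0.74 on the log2 scale (edgeR adjusted p = 0.0336). This was lost without any of wild-type mice 1, 2 or 3, cluster knockout mouse 1 and Ms4a6c knockout mice 2 or 3, with adjusted p values up to 0.177. It was the only one of 77 families to pass in that comparison once all copies were added.

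Rplp0, the stalk base, had 732, 547 and 508 CPM in wild type and 401, 479 and 432 CPM in the Ms4a6c knockout (log2 fold change -0.44 ± 0.18, edgeR adjusted p = 0.438, and -0.27 without wild-type mouse 1). Its copy Gm8730 had between 2.31 and 5.08 CPM in the other 6 mice and 53.1, 27.0 and 27.8 CPM in the Ms4a6c knockout, and rose by 3.71 ± 0.34 on the log2 scale (edgeR adjusted p = 0.000637). Rpl21 had 551, 463 and 464 CPM in wild type and 306, 315 and 390 CPM in the Ms4a6c knockout (log2 fold change -0.55 ± 0.13, edgeR adjusted p = 0.161). Its copies Gm13370 and Gm10240, identical to each other, were at 0 in 7 mice and at 31.4 and 33.0 CPM each in Ms4a6c knockout mice 1 and 2, the mice with the lower Rpl21. Among near-identical copies, 3 of 68 with a member's name and 3 of 288 with other names passed between Ms4a6c knockout and wild type. These shares were 4.41% and 1.04%, against 0.435% of all genes, and all 6 copies rose. Of the named copies that passed, Rps2-ps6 was a member only through the Ms4a6c knockout mice. Those with other names include Gm8210 and Gm13841, which have the same sequence. The shares therefore depend in part on how members were chosen and on copies that are not independent.

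**Figure D4:**
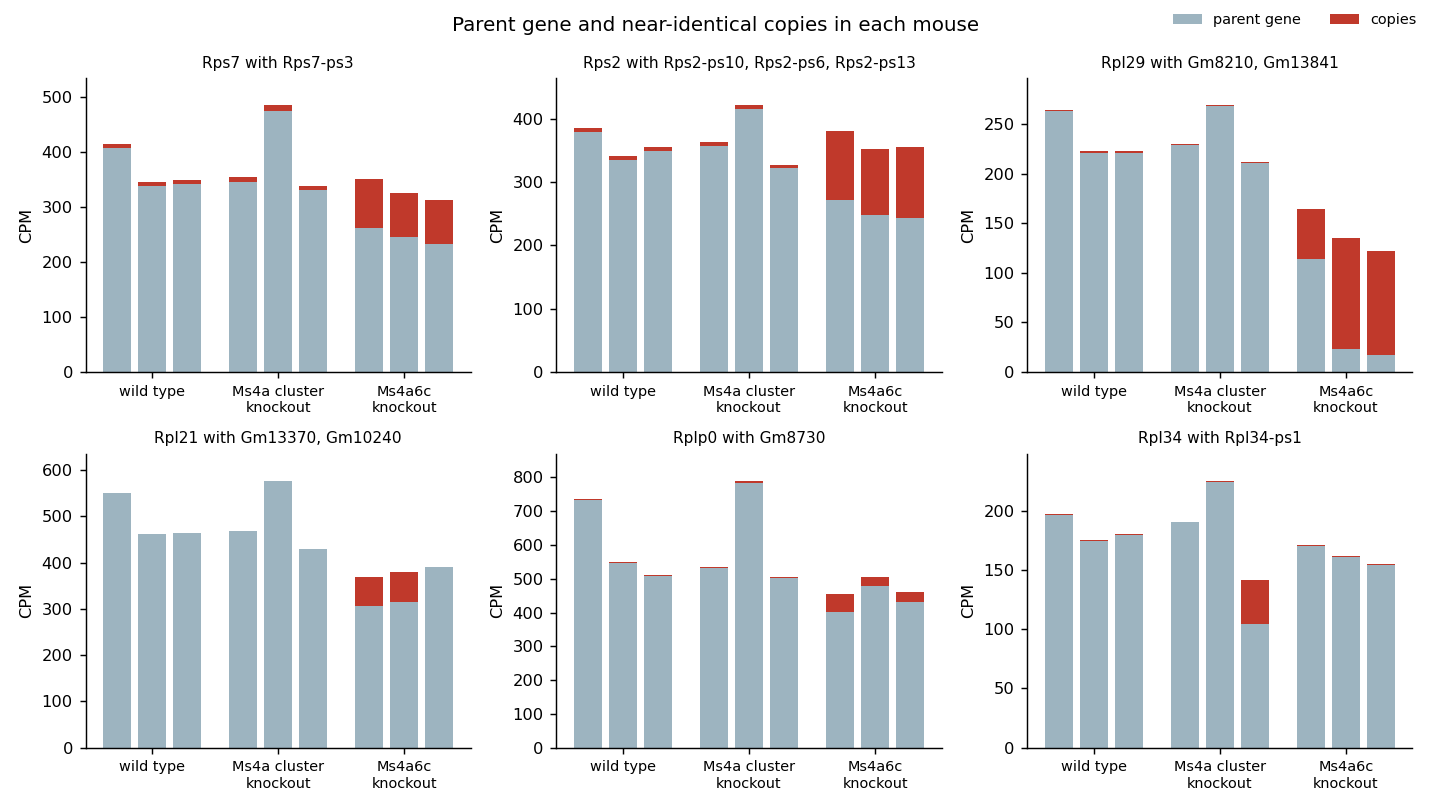
CPM of a parent gene (grey) with its copies (red) stacked on it, in each mouse. In the Ms4a6c knockout mice copies take part of the bar for Rps7, Rps2, Rpl29, Rpl21 (2 mice) and Rplp0, and for Rpl34 they do so in cluster knockout mouse 3 only.

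In Rpl34 and Rpl35a a lower parent beside a higher copy was seen in single mice, also chosen after their values were seen. Rpl34 had 105 CPM in cluster knockout mouse 3 against 154 to 224 CPM in the other 8 mice, and Rpl34-ps1 had 37.1 CPM in that mouse against 0.574 to 0.997 CPM elsewhere. Rpl34-ps1 held 26.2% of the pair's counts in this mouse and at most 0.587% in any other. Rpl35a was lowest in Ms4a6c knockout mouse 1, at 89.9 CPM against 129 to 181 CPM. There Rpl35a-ps2, -ps3, -ps4 and -ps6, which have 1 common sequence, each stood at 3.85 CPM against 0.284 to 0.601 CPM elsewhere, and Gm10243, with that same sequence, stood at 24.4 CPM. Rpl34-ps1 would have had 83.0 counts without the cluster knockout and each of these Rpl35a copies 49.8 without the Ms4a6c knockout, under the minimum of 90. In the Rpl7a family 2 copies had opposite values in 2 mice, and the parent was highest of all 9 mice in one of them (509 CPM in cluster knockout mouse 2) and lowest in the other (386 CPM in Ms4a6c knockout mouse 3). In Rpl7a-ps11, 0 CPM was listed in 7 mice, with 3.59 CPM in cluster knockout mouse 2 and 4.08 CPM in Ms4a6c knockout mouse 3. Gm8226, another Rpl7a copy, was at 0 in exactly those mice and at 2.83 to 4.65 CPM in the other 7.

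Among the genes near these loci, none of 56 tested within 5 Mb of Rps7-ps3 and none of 89 near Rps2-ps10 passed by edgeR between Ms4a6c knockout and wild type. None of 62 near Rps2-ps6 and none of 60 near Rps2-ps13 passed. Near Rps7 5 of 61 passed, near Rps2 6 of 274 and near Rplp0 4 of 142, one of them the Rpl29 copy Gm13841, against the 0.435% of all genes. Near other parents with lower values there were 1 of 196 for Rpl29, 1 of 126 for Rpl21 and 0 of 123 for Rpl35a. Near copies with other names, 3 of 145 passed for Gm13841 and 1 of 171 for Gm13370. For Gm8210 it was 0 of 64, for Gm10240 0 of 34, for Gm8730 0 of 109 and for Gm10243 0 of 79. The 3 near Gm13841 were also counted near Rplp0.

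Parents other than these differed little from wild type. Of 77 parents, 74 had a log2 fold change below 0 in the Ms4a6c knockout, with a median of -0.15 against -0.0016 over all genes tested. In 46 of them all 3 Ms4a6c knockout values were below all 3 wild-type values, against 8.55% of all genes. No parent was above, against 9.71% of all genes. No parent passed in edgeR. An unadjusted p under 0.05 was reached by 6 parents, or 7.79%, compared with 10.5% over the whole table. The direction depended on scaling. With library sizes not corrected for composition the median was 0.05, while that of all genes moved to 0.18, so the parents stayed below all genes. Without the 2 gland-rich libraries, or without wild-type mouse 1 alone, it was -0.08. The 3 parents above 0 were Rplp2, Rps29 and Rps13. The small subunit (31 genes, median -0.14) and the large subunit (46 genes, median -0.15) had similar values.

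Rps6 had 376, 337 and 311 CPM in wild type, 324, 415 and 311 CPM in the cluster knockout and 311, 315 and 304 CPM in the Ms4a6c knockout. No difference was detected against wild type (log2 fold change -0.14 ± 0.11 in the Ms4a6c knockout, edgeR adjusted p = 0.707, and 0.04 ± 0.11 in the cluster knockout, edgeR adjusted p = 0.999). Rpsa, which is also a laminin receptor, differed by -0.15 ± 0.12 in the Ms4a6c knockout, Rplp1 by -0.18 ± 0.18 and Rplp2 by 0.06 ± 0.07 on the log2 scale, and none passed. Among paralogs, Rps4l had 12.4, 16.7 and 14.4 CPM in wild type and 18.1, 24.4 and 22.6 CPM in the Ms4a6c knockout, with a log2 fold change of 0.57 ± 0.16 (edgeR adjusted p = 0.215). The other 7 paralogs lay between -0.64 for Rps3a2 and 0.08 for Rps3a3.

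Among -ps copies with lower values in the Ms4a6c knockout, the smallest p belonged to Rpl31-ps8 (-0.41 ± 0.14 on the log2 scale), Rps23-ps1 (-0.45 ± 0.16) and Rpl9-ps6 (-0.40 ± 0.16), with adjusted p values of 0.327, 0.346 and 0.444 in edgeR. Rpl38-ps2, whose sequence equals that of Rpl38 over 213 bases, had 0.711, 1.05 and 1.48 CPM in wild type, 3.06, 1.49 and 3.46 CPM in the cluster knockout and 1.97, 3.04 and 3.57 CPM in the Ms4a6c knockout. It did not pass against wild type in either knockout (log2 fold change 1.37 ± 0.38, edgeR adjusted p = 0.223, in the Ms4a6c knockout).

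In the cluster knockout, no member passed in edgeR or in DESeq2. The genes that passed over the whole table were 0.0258% in edgeR and 0.0778% in DESeq2. At an unadjusted p under 0.05 edgeR had 3 members, against 4.93% of genes, and 6 without cluster knockout mouse 2 or 3. These were Rpl38-ps2 with a log2 fold change of 1.32 ± 0.38, Rpl34-ps1 with 3.88 ± 1.29 and Rplp2 with 0.17 ± 0.07, each at an adjusted p of 0.968. The value of Rpl34-ps1 rested on cluster knockout mouse 3 and was -0.20 without it. Next among the parents came Rpl36 (0.12 ± 0.08) and Rps29 (0.11 ± 0.08), and below 0 Rpl34 (-0.08 ± 0.21) and Rpl24 (-0.01 ± 0.09). Among the copies Rpl36-ps12 was at 0.34 ± 0.18, Rpl3-ps1 at -0.28 ± 0.14, Rpl30-ps9 at -0.68 ± 0.42 and Rps6-ps4 at -0.22 ± 0.16, and none of these passed. Of 77 parents, 72 were above 0, with a median of 0.05 against 0.01 over all genes, and the median was -0.01 without the 2 gland-rich libraries and -0.08 without cluster knockout mouse 2 alone.

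The knockouts were compared directly. The log2 fold change of the cluster knockout against the Ms4a6c knockout was -4.12 ± 0.11 for Rps2-ps10 (edgeR adjusted p = 5.74e-08) and -3.24 ± 0.14 for Rps7-ps3 (edgeR adjusted p = 2.02e-06). It was -4.51 ± 0.41 for Rps2-ps6 (edgeR adjusted p = 0.000531) and -4.73 ± 0.83 for Rps2-ps13 (edgeR adjusted p = 0.0441). These 4 were the members that passed, against 0.443% of genes, and as above the last 2 were members only through the Ms4a6c knockout mice. The call of Rps2-ps13 was lost in 7 of 9 fits that left out 1 mouse, with an adjusted p between 0.0212 and 0.203. DESeq2 called 7 members, against 1.3% of genes, and 21 had an unadjusted p under 0.05 in edgeR, against 9.37% of genes. The last count was 13 without cluster knockout mouse 2 and 72 without cluster knockout mouse 3. All 77 parents had a log2 fold change above 0, with a median of 0.20 against 0.01 over all genes, and the median was 0.06 without cluster knockout mouse 2. With library sizes not corrected for composition the median was -0.02 and that of all genes -0.17. This comparison shares the Ms4a6c knockout mice with the one above.

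Genes that work with the ribosome were followed as lists. Between Ms4a6c knockout and wild type, 10.5% of all genes had an unadjusted p under 0.05 in edgeR, the share to set beside each list. Of 16 translation factors and other mRNAs with a 5-prime pyrimidine tract, none passed in edgeR or DESeq2 in the Ms4a6c knockout against wild type, and none had an unadjusted p under 0.05. Their median log2 fold change was -0.12, and 14 were below 0. Btf3, a subunit of the nascent chain complex, had the smallest p of those below 0 (-0.15, edgeR adjusted p = 0.478). Of 12 genes of RNA polymerase I, which transcribes ribosomal RNA, none passed and 2 had an unadjusted p under 0.05, led by Taf1a (0.34, edgeR adjusted p = 0.261).

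Of 28 ribosome assembly factors none passed, and 2 had an unadjusted p under 0.05, with Nhp2 the first of those below 0 (-0.29, edgeR adjusted p = 0.401). Of 14 genes of mTOR and S6 kinase signalling none passed, with 1 at an unadjusted p under 0.05. Of 78 mitochondrial ribosomal proteins, which build the separate ribosome of mitochondria, none passed. An unadjusted p under 0.05 was reached by 4 of them, against 10.5% of all genes. Their median was -0.01. No gene of these lists passed in the cluster knockout against wild type or between the knockouts by edgeR or DESeq2.

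Of the cell type markers, 1 of 7 for mature olfactory sensory neurons passed in the Ms4a6c knockout, the G protein subunit gene Gng13 (log2 fold change -0.89, edgeR adjusted p = 0.00121), which lies within 5 Mb of Rps2. It also passed between the knockouts (0.95, edgeR adjusted p = 0.00073), and no marker passed in the cluster knockout against wild type. No marker of immature neurons and globose basal cells (8 genes), horizontal basal cells (3), sustentacular cells (6), nasal glands (8), leukocytes (6) or red blood cells (5) passed in edgeR in any comparison. In the Ms4a6c knockout against wild type, DESeq2 called 2 of the sustentacular markers in opposite directions, Cyp2g1 (log2 fold change 0.32 in edgeR) and Ermn (-0.41). All 6 summed to between 8068 and 8951 CPM in wild type and between 9922 and 10665 CPM in the Ms4a6c knockout. Red blood cell markers summed to between 665 and 912 CPM in wild type. They summed to 814, 1932 and 2346 CPM in the Ms4a6c knockout mice, the first of which lay inside the wild-type range. All 5 had an unadjusted p under 0.05 in edgeR, against 10.5% of all genes. The part that these shifts play in the level of the members was not tested.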

How the data were processed

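The authors aligned the reads with STAR 2.6.1 to mm10 and estimated counts per gene with RSEM 1.3.1; per the labels, the deposited values are expected counts, not normalized, for 9 mice. A read that fits a parent and a copy is divided between them by RSEM's model, so the split is an estimate. Counts were rounded, and genes with at least 10 counts in total were kept (23225). All 3 genotypes were fitted together in edgeR 4.0.16 (R 4.3.3) with TMM scaling and the quasi-likelihood test, with Benjamini-Hochberg adjustment over all genes tested and a threshold of 0.05. DESeq2 1.42.0 was an alternative, and so were other scalings and filters, a replicate block, and leaving out each mouse. For families, counts of parent and copies were added and the fit repeated. Copies were found with BLAST+ 2.17.0 (at least 90% identity, 200 aligned bases and 50% of the copy transcript), in GENCODE M21 transcripts of GRCm38. Genes were matched to M21 by transcript identifier, which succeeded for 99.58% of genes and for all 152 members. Some symbols differ there, such as that of Rps7-ps3, which M21 names Gm6472. The files were made with another annotation release, so coordinates are those of M21.

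Members and lists were chosen with earlier results of these data known. Named were Rps7, Rps2 and their copies, each member that passed with its relatives, the 3 parents and 3 copies with the smallest p in each direction, the highest and lowest per kb, the paralogs, and Rps6, Rpsa and the stalk genes; others are said to be chosen later. The fit was tested on simulated data of 23225 genes in the Ms4a6c knockout against wild type, where 100 of 100 genes changed 4-fold and 91 of 100 changed 2-fold were called, with 4 false calls. In the simulation only genes with higher counts were changed, all genes had the same dispersion, and no library was gland-rich. These rates therefore need not hold for copies with few counts or for genes that vary more between mice. A count of 3 corresponds to between 0.136 and 0.215 CPM.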

Additional observations from a re-analysis of the deposited data

Results flagged for a closer look

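The copies of Rps2 and Rps7 differed between cluster knockout and Ms4a6c knockout mice, by the direct test in edgeR. The log2 difference was -4.12 for Rps2-ps10, -3.24 for Rps7-ps3, -4.51 for Rps2-ps6 and -4.73 for Rps2-ps13, whose call was lost in 7 of 9 fits that left out 1 mouse. Each of the 3 Ms4a6c knockout mice was above each of the 3 cluster knockout mice for all 4 copies. Rps2-ps6 and Rps2-ps13 reached the minimum count for members only through the Ms4a6c knockout mice. Their separation therefore depends in part on how members were chosen and adds nothing to the test. The share of all genes separated in this way was not counted for this comparison. The parents had differences of the opposite sign in the same comparison, 0.52 for Rps2 and 0.64 for Rps7, which did not pass in edgeR. The part that the division of reads between parent and copy plays was not tested.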

How the results depend on the processing

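Of 936 recomputed values, 832 kept their direction and their side of the threshold or stayed within the spread. In the Ms4a6c knockout against wild type, 3 members passed, and 6 did with no filter on low counts, 6 without cluster knockout mouse 2 (range 3 to 6 over the 9 fits that left out 1 mouse), 5 without the 2 gland-rich libraries, 5 with only the compared genotypes fitted and 7 in DESeq2. Between the knockouts 4 passed, and 7 in DESeq2. With plain library sizes the parent median was 0.052 (Ms4a6c knockout against wild type) and -0.018 (between the knockouts), the parent sum differed by 376 CPM instead of -2774 CPM (-3406 to -1529 with 1 mouse left out), and the -ps sum by 203 CPM instead of 157; the latter was 187 CPM without the gland-rich libraries and 146 to 176 CPM with 1 mouse left out. The sums of parent and copies lay near 0 and changed sign. In the Ms4a6c knockout against wild type, Rps2 with its -ps copies lay between -0.029 (without wild-type mouse 2) and 0.060 with 1 mouse left out, being also below 0 without wild-type mouse 3 (-0.0017) and without Ms4a6c knockout mouse 1 (-0.027). With all copies it lay between -0.016 and 0.071, with -0.015 without Ms4a6c knockout mouse 1. Rps7 was 0.044 with plain library sizes. Between the knockouts, Rps2 with -ps copies was -0.17 with plain library sizes, -0.073 without the gland-rich libraries and -0.071 (without cluster knockout mouse 2) to 0.11 with 1 mouse left out. With all copies it was -0.086 without the gland-rich libraries and -0.084 to 0.10 with 1 mouse left out, with -0.0013 without Ms4a6c knockout mouse 2. Rpl34-ps1 in the cluster knockout lay between -0.20 (without cluster knockout mouse 3) and 4.44. The cause was not tested.

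Mice with the same replicate number did not deviate together (mean correlation -0.392 between cluster knockout and wild type, -0.0262 between Ms4a6c knockout and wild type), and the main fit did not pair them. The 2 gland-rich libraries, wild-type mouse 1 and cluster knockout mouse 2, carry different numbers and enter the first value. This check cannot exclude a batch or litter shared by mice of 1 number. With a replicate block 0, 4 and 4 members passed in the 3 comparisons, Rps2-ps13 (4.20, edgeR adjusted p = 0.0437) being the call added. Genes called over the whole table ranged from 59 to 159 around 101 in the Ms4a6c knockout with 1 mouse left out, and were 182 with no filter, 350 without the gland-rich libraries and 343 in DESeq2; between the knockouts they were 103, with 271 in DESeq2, 155 with no filter, 58 with plain library sizes and 66 to 121 with 1 mouse left out; in the cluster knockout they were 6, with 18 in DESeq2, 2 with the block and 3 to 7 with 1 mouse left out. Of the 67 -ps members, 3 had at least 1 mouse at or under 3 counts, and the median of their lowest mouse was 12.8 counts.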
